A study of Oryza sativa with 6 samples.

Results

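The cytosolic ribosomal protein genes of rice were followed at the site where gall midge maggots feed. They were taken as every gene, named by a probe set that maps to 1 gene, whose symbol or synonym begins with RPL (large subunit) or RPS (small subunit) and a number, with lower-case rpl and rps symbols left out. The rule gave 22 of the 17905 genes named on the array, 12 of the large subunit on 16 probe sets and 10 of the small subunit on 16 probe sets. All 32 probe sets passed the filter on low signal. The list is a part of the family: ribosomal protein genes without such a symbol are not covered. Nor are those read only by the 34850 probe sets that name no gene. The symbols alone do not show that each protein belongs to the ribosome of the cytosol, and 2 of the genes, RPL18 and RPL27, also carry the synonyms CL18 and CL27, names of the kind given to proteins of the plastid ribosome.

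The rice variety was RP2068-18-3-5 (RP), an indica rice resistant to the gall midge with a hypersensitive response, and both groups were of this 1 genotype. The RP-I group was exposed to gall midge biotype 1 (GMB1) 15 days after sowing, with 25 females and 10 males, and the RP-UI group was handled alike without insects. Stem tissue of 1 cm was taken from the feeding site, or from the same region of un-infested plants, and material from 24, 48 and 72 h after infestation was pooled, so no course over time can be read. Each group had 3 replicates, each a separate tray of plants, and each was hybridised to 1 Affymetrix Rice Genome Array. The values are RMA signals on the log2 scale, so a difference of 1 is a doubling, and signals of different probe sets are not on a common scale of abundance.

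Ribosomal proteins coat and hold together the ribosomal RNA of the large subunit, which joins amino acids, and of the small subunit, which reads the messenger RNA. Plants make the proteins of the cytosolic ribosome from many small gene families whose transcripts are abundant, most of all where cells grow and divide. The ribosomes of plastids and mitochondria have their own sets of proteins, some of them encoded in the organelles.

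Both arrays numbered 3 stood apart from the others of their groups. Affymetrix arrays carry pairs of probe sets at the 3′ and at the 5′ end of control transcripts. For 9 of 9 pairs, the gap was smaller on RP-UI 3 and RP-I 3 than on the other arrays of the same group. Of the pairs, 5 were of rice, with actin named more than once, and 4 were of bacterial RNAs added for the assay. The gap of the rice GAPDH control was 6.88, 6.84 and 5.07 on RP-UI 1, 2 and 3, and 6.48, 7.00 and 4.10 on RP-I 1, 2 and 3. The added dap RNA, which does not come from the plant, had gaps of 2.87, 3.28 and 1.20 on the RP-UI arrays against 3.17, 3.47 and 1.10 on the RP-I arrays. Of the 32 ribosomal protein probe sets, 26 (81.2%) had a higher mean on the arrays numbered 3 than on the other 4, against 45.7% of all 51532 probe sets tested. The median offset was 0.43, against -0.04 over all probe sets. The part of this offset in the results below was not tested, and values without both arrays are given beside the counts.

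**Figure D1:**
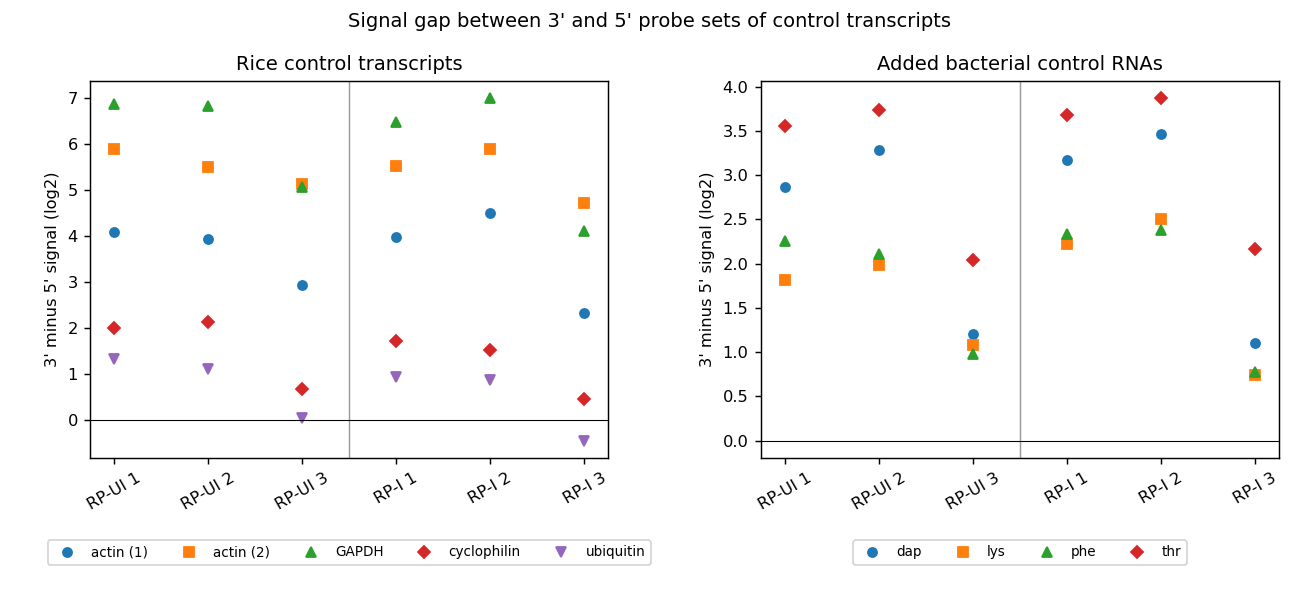
Gap between the signals of the 3′ and 5′ probe sets (log2, vertical axis) on each of the 6 arrays, 1 point per pair of probe sets and array. Left, 5 pairs of rice controls, with actin named more than once, and right, 4 added bacterial RNAs. The points of RP-UI 3 and RP-I 3 lie below those of the same pair on the other arrays of their group.

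The listed ribosomal protein transcripts had lower mean signals in infested than in un-infested stems in nearly every case, by a small amount each. Of the 32 probe sets, 31 (96.9%) had a lower mean in RP-I, against 48.6% of all probe sets tested, and the median log2 fold change was -0.34, against 0.01. None passed limma's moderated test after Benjamini-Hochberg adjustment over all 51532 probe sets, with adjusted p from 0.132 to 0.991, where 0.328% of all probe sets were called lower and 0.235% higher. At an unadjusted p of 0.05 or under, 5 (15.6%) were lower, against 7.65% of all probe sets, and 0 were higher, against 6.58%. With a change of 2-fold or more asked for as well, 0 were lower, where 2.90% of all probe sets were. The mean was lower in RP-I in each of the 3 pairs of same-numbered arrays for 26 probe sets (81.2%), against 22.0%, and every RP-I array lay below every RP-UI array for 9 (28.1%), against 9.73%. The reverse order was seen for 0, against 9.12%. These shares are descriptions of a list whose genes share arrays and are not independent, and the difference between them was not tested. In bulk tissue, fewer cells of a type and less RNA per cell cannot be told apart.

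The members ran from -0.95 to 0.09, and over all probe sets the 5th and 95th percentiles of the log2 fold change were -0.85 and 0.82. The median standard error of the members was 0.25, against 0.20 over the array. When the replicate number entered the fit as a block it was 0.14, against 0.15. Then 3 probe sets (9.38%) were called lower, against 4.44% of all probe sets, and 0 were called higher, against 4.06%. They belong to RPL27, RPL39B and RPS26.

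In the large subunit, all 16 probe sets had a lower mean in RP-I, with a median log2 fold change of -0.32 and a range from -0.92 to -0.12. None was called. At an unadjusted p of 0.05, 3 (18.8%) passed, 2 of them of RPL27, against 7.65% of all probe sets, and 7 (43.8%) had groups that did not overlap, against 9.73%. Without RPL18 and RPL27, 12 of 12 probe sets were lower with the same median, 1 passed the unadjusted threshold, and 1 in place of 2 was called with the replicate block. Taking for each gene the probe set of highest mean signal, the 5 genes with the largest differences were RPL27, RPL7A-2, RPL39C, RPL39B and RPL10A.

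RPL27 (NCBI Gene 4327257) is named for a protein of the large subunit and had 3 probe sets. It also carries the plastid-type synonym CL27, so its place in the ribosome of the cytosol is not settled by its name. On the probe set of highest mean signal, its log2 signals were 9.59, 9.77 and 10.04 in RP-UI against 9.06, 8.93 and 9.47 in RP-I. The groups did not overlap, and RP-I was lower than RP-UI in each pair, by 0.54, 0.84 and 0.57 on the log2 scale. The log2 fold change was -0.65 (SE 0.20, n = 3 per group), with a limma adjusted p of 0.205, or 0.0481 with the replicate block.

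RPL39B (NCBI Gene 4331014) and RPL39C (NCBI Gene 9268459) are copies of the gene for a very small protein that lines the tunnel through which the new peptide leaves the ribosome. RPL39B gave 12.77, 12.73 and 13.48 in RP-UI against 12.37, 12.33 and 13.10 in RP-I on its probe set of higher signal. The array numbered 3 was the highest of each group, so the groups overlapped, while the differences within pairs were nearly equal, at -0.40, -0.41 and -0.39. The log2 fold change was -0.40 (SE 0.30, limma adjusted p = 0.699), and the call was not reached with the block either (0.117).

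The other RPL39B probe set gave 12.71, 12.50 and 13.63 in RP-UI against 12.08, 11.87 and 13.00 in RP-I. The pairs differed by -0.63, -0.63 and -0.64, a spread far smaller than that between arrays of a group. Its log2 fold change was -0.63 (SE 0.41), with a limma adjusted p of 0.614, or 0.0398 with the replicate block. RPL39C was measured at 12.48, 12.48 and 13.02 in RP-UI against at 12.30, 11.94 and 12.40 in RP-I. Its groups did not overlap, and its log2 fold change was -0.44 (SE 0.21, limma adjusted p = 0.44).

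RPL7A-2 (NCBI Gene 4347522) encodes 1 of a pair of RPL7A copies. Its signals were 12.33, 12.30 and 13.09 in RP-UI against 11.95, 11.83 and 12.31 in RP-I, with a log2 fold change of -0.55 (SE 0.26, limma adjusted p = 0.436). Only RP-I 3 came up to the level of the 2 lower RP-UI arrays. The other copy, RPL7A-1, had a log2 fold change of -0.16 (SE 0.28) and was higher, by 0.08, in RP-I 3 than in RP-UI 3. Whether the 2 copies differ in their response was not tested, and the 95% intervals, -1.17 to 0.08 and -0.83 to 0.51, overlap over most of their length.

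RPL10A (NCBI Gene 9266191), a protein of the mobile stalk beside the site where spent tRNA leaves, gave 12.29, 12.33 and 12.89 in RP-UI against 12.13, 11.79 and 12.44 in RP-I on its probe set of higher signal. The log2 fold change was -0.38 (SE 0.24, limma adjusted p = 0.607), and the groups overlapped through RP-I 3. Its second probe set, with a mean signal of 5.49, had a log2 fold change of -0.18 and groups that did not overlap.

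The other large subunit genes had log2 fold changes between -0.32 and -0.15. RPL11 and RPL5A encode the proteins that bind the small ribosomal RNA of the central protuberance. RPL11 was at 12.66, 12.74 and 12.87 in RP-UI against at 12.50, 12.39 and 12.44 in RP-I, the groups apart, with a log2 fold change of -0.31 and a 95% interval of -0.62 to -0.01 (limma adjusted p = 0.341). RPL5A, by contrast, was at -0.15 (interval -0.93 to 0.64) and was higher, by 0.06, in RP-I 3 than in RP-UI 3.

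RPL3A, which sits by the centre that forms the peptide bond, had a log2 fold change of -0.31, and RPL30, whose yeast counterpart controls the splicing of its own transcript, one of -0.28. In both, every RP-I array lay below every RP-UI array. RPL9 had a log2 fold change of -0.32 with overlapping groups. RPL18 stood at 11.06, 11.20 and 11.68 in RP-UI against 11.00, 11.15 and 10.88 in RP-I. Its log2 fold change of -0.30 came mostly from the third pair, which differed by -0.80, the others by -0.06 and -0.04.

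**Figure D2:**
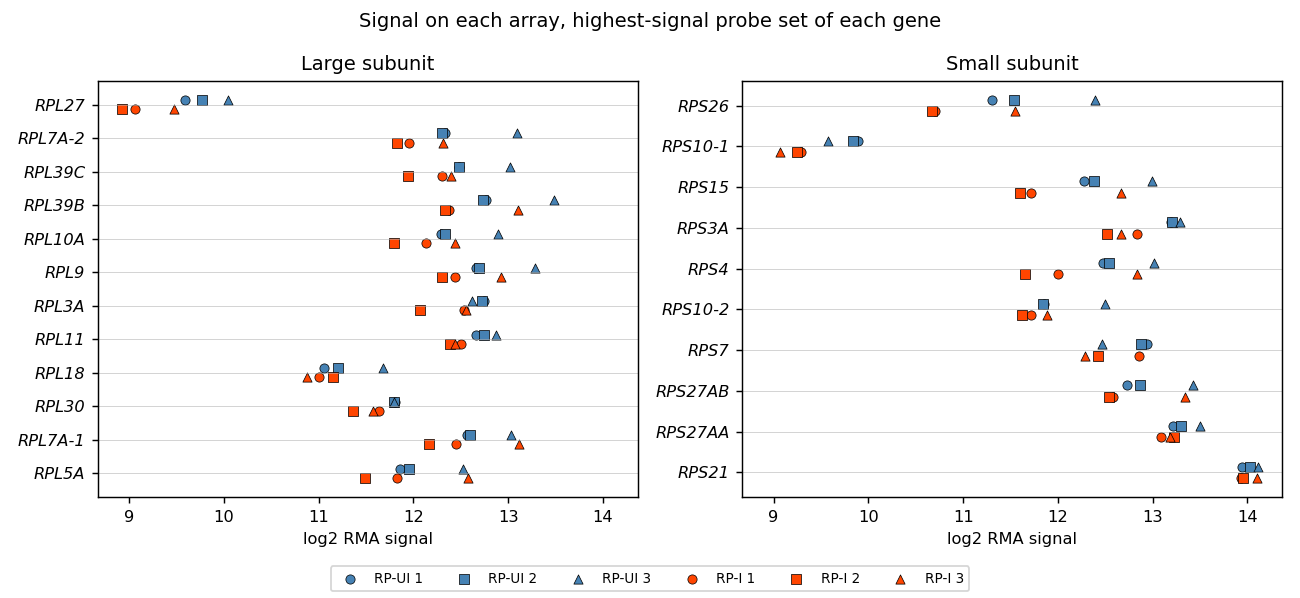
Log2 RMA signal (horizontal axis) of the 12 large subunit (left) and 10 small subunit (right) genes on each array, for the probe set of highest mean signal of each gene, ordered by log2 fold change. Blue points are RP-UI, orange-red points RP-I, and the marker gives the replicate number: in most genes the triangles of replicate 3 lie to the right of the other arrays of their group.

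In the small subunit, 15 of 16 probe sets had a lower mean in RP-I and 1 a higher mean, with a median log2 fold change of -0.38 and a range from -0.95 to 0.09. None was called. At an unadjusted p of 0.05, 2 (12.5%) passed, against 7.65% of all probe sets, and 2 (12.5%) had groups that did not overlap, near the 9.73% of all probe sets. In the probe set of highest mean signal of each gene, the 5 genes with the largest differences were RPS26, RPS10-1, RPS3A, RPS15 and RPS4.

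RPS26 (NCBI Gene 4327570) lies at the channel where the messenger RNA leaves the small subunit. Its signals were 11.30, 11.54 and 12.39 in RP-UI against 10.70, 10.67 and 11.55 in RP-I. Each pair differed by more than 0.5 (-0.60, -0.87 and -0.85), but RP-I 3 was higher than RP-UI 1 and RP-UI 2, so the groups overlapped. The log2 fold change was -0.77 (SE 0.37), with a limma adjusted p of 0.433, or 0.0328 with the replicate block.

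RPS3A (NCBI Gene 4331966) had the lowest unadjusted p among the members. Its probe set of highest mean signal gave 13.19, 13.20 and 13.29 in RP-UI against 12.83, 12.52 and 12.67 in RP-I. The groups were well apart, and the array numbered 3 was the highest in RP-UI but not in RP-I, with an offset of 0.04. The log2 fold change was -0.55 (SE 0.14), with an adjusted p by limma of 0.132, or 0.0717 with the block.

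RPS10-1 (NCBI Gene 4329619) and RPS10-2 (NCBI Gene 4335865) are copies of a gene for a protein of the head of the small subunit. RPS10-1 gave 9.89, 9.84 and 9.57 in RP-UI against 9.29, 9.25 and 9.07 in RP-I, again with no overlap. In this gene the array numbered 3 was the lowest of each group, the reverse of most members. Its log2 fold change was -0.57 (SE 0.15, limma adjusted p = 0.149, or 0.0525 with the block). RPS10-2 had a log2 fold change of -0.32 (SE 0.22) and the array numbered 3 was the highest of each group.

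RPS15 (NCBI Gene 4342580), near the decoding site, was at 12.27, 12.38 and 12.99 in RP-UI against at 11.72, 11.60 and 12.67 in RP-I, with a log2 fold change of -0.55 (SE 0.34, limma adjusted p = 0.599). RPS4 (NCBI Gene 4328016) was at 12.48, 12.54 and 13.01 in RP-UI against at 12.00, 11.65 and 12.83 in RP-I on its probe set of higher signal, with a log2 fold change of -0.52 (SE 0.33, limma adjusted p = 0.609). In both genes RP-I 3 exceeded 2 of the RP-UI arrays, while RP-I 1 and RP-I 2 lay below all 3.

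RPS7 had a log2 fold change of -0.23. RPS27AA and RPS27AB, whose products are made as a fusion with ubiquitin and then cut from it, were at -0.18 and -0.19. RPS27AB also carries the synonym UBQ6. RPS21 (NCBI Gene 4332813) showed the smallest difference of all members: the probe set of highest mean signal gave 13.94, 14.03 and 14.11 in RP-UI against 13.93, 13.95 and 14.10 in RP-I. Its log2 fold change was -0.03, with a 95% interval of -0.34 to 0.28. These signals are close to the highest on the arrays, which lay between 14.39 and 14.67, where a probe set has little room to show a difference. Whether this limited the RPS21 value was not tested.

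**Figure D3:**
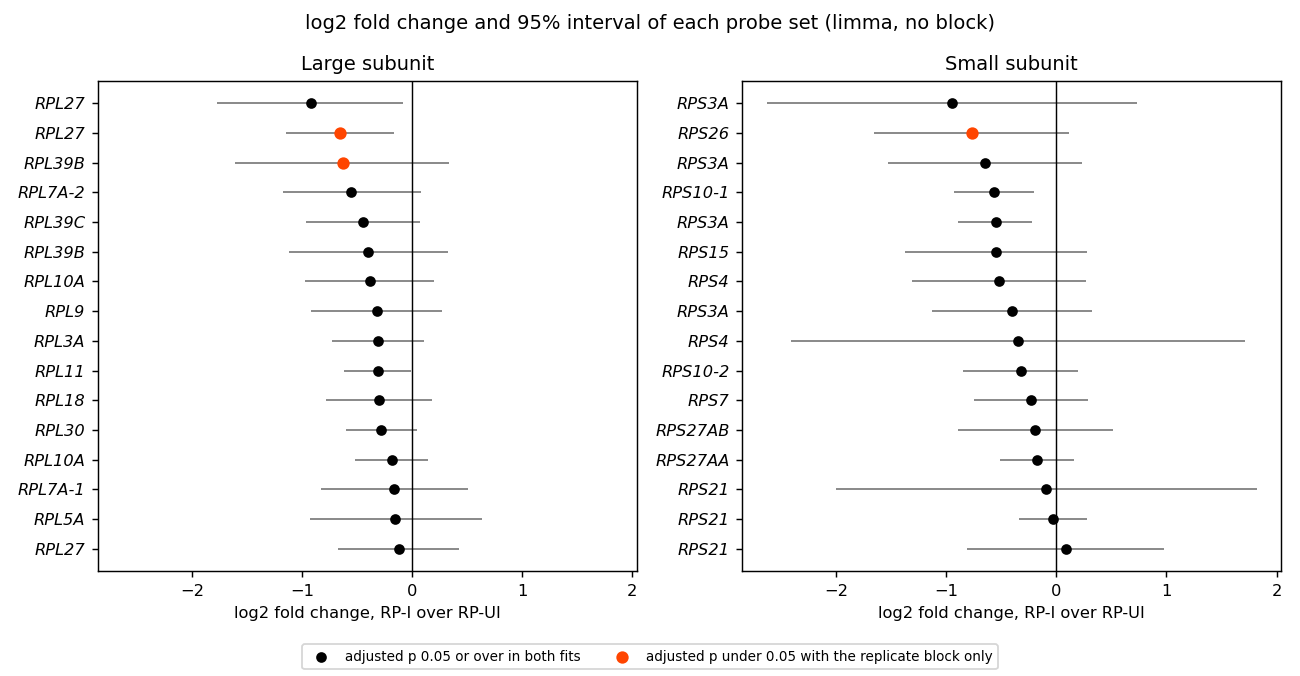
Log2 fold change of RP-I over RP-UI (horizontal axis) with its 95% interval for each of the 16 large subunit (left) and 16 small subunit (right) probe sets, named by gene. Points lie below 0 except 1 of RPS21 at 0.09, and the 3 orange-red points (RPL27, RPL39B, RPS26) passed the adjusted threshold only with the replicate number as a block.

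Several genes were read by more than 1 probe set, and these did not always run together across the arrays. The probe sets ending in _s_at or _x_at hold probes that can also bind related transcripts, so copies of a family may share signal. Among the probe sets of highest mean signal, those of RPL27, RPL39C, RPL9 and RPS3A end in _s_at. Those of RPL10A and RPL39B end in _x_at. For RPS3A the other 3 probe sets had log2 fold changes of -0.40, -0.65 and -0.95, the last of them -0.19 without RP-I 3 and -0.59 without both arrays numbered 3. The last of them, of lowest mean signal, gave 10.28, 9.84 and 8.85 in RP-UI against 9.44, 9.50 and 7.19 in RP-I. Here the arrays numbered 3 were the lowest of each group, with a difference of -1.66 between them, and their offset was -1.75, while the probe sets at -0.40 and -0.65 had offsets of 0.70 and 0.82.

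RPL27 had the same split. Its second probe set gave 10.12, 9.91 and 9.71 in RP-UI against 9.42, 9.37 and 8.19 in RP-I, with a log2 fold change of -0.92 (SE 0.35, limma adjusted p = 0.303) and an offset of -0.76, against 0.42 on the first. The third RPL27 probe set, at 6.31, 6.07 and 5.92 in RP-UI against 6.27, 6.11 and 5.55 in RP-I, differed by -0.12 (SE 0.23). The mean was thus lower in RP-I on all 3, and the 95% interval left out 0 on 2 of them.

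RPS21 was the 1 gene whose probe sets differed in sign. Its second probe set by mean signal, with a name ending in _x_at, gave 10.63, 10.44 and 12.25 in RP-UI against 10.31, 10.12 and 12.63 in RP-I, so that arrays 3 exceeded the others by 2.07 in mean and the log2 fold change was -0.09 (SE 0.79). The third gave 8.08, 8.28 and 7.01 in RP-UI against 8.03, 8.15 and 7.46 in RP-I, with the opposite offset of -0.90 and a log2 fold change of 0.09 (SE 0.37). The second RPS4 probe set, also an _x_at, was at 10.18, 10.41 and 12.25 in RP-UI against 10.04, 9.49 and 12.26 in RP-I, with an offset of 2.22 and a log2 fold change of -0.35 (SE 0.85). For these probe sets the difference between arrays of a group was larger than any difference between groups.

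**Figure D4:**
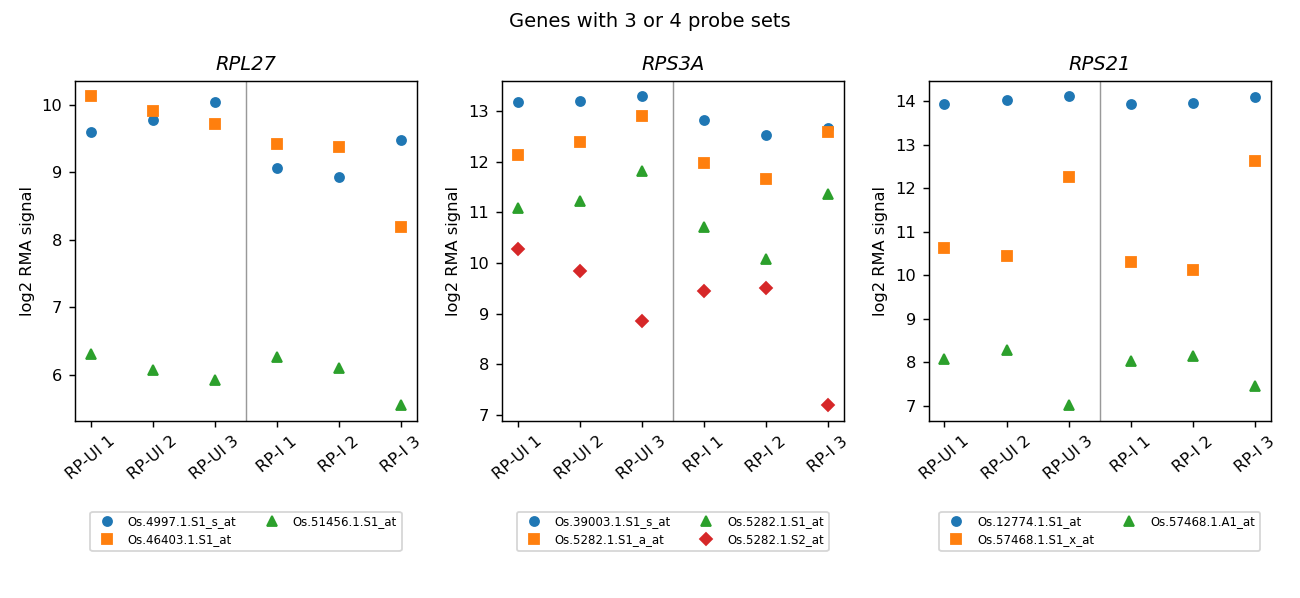
Log2 RMA signal (vertical axis) on the 6 arrays for each probe set of RPL27, RPS3A and RPS21, the genes with 3 or 4 probe sets. In each gene some probe sets are highest and others lowest on the arrays numbered 3, and every RP-I point lies below every RP-UI point for 2 probe sets of RPL27 and 1 of RPS3A only.

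With 1 probe set per gene, that of highest mean signal, the mean was lower in RP-I for all 22 genes, and 20 were lower in all 3 pairs. The exceptions, RPL5A and RPL7A-1, were higher in RP-I 3 than in RP-UI 3. Over the 32 probe sets, the median difference between same-numbered arrays was -0.17 in pair 1, -0.46 in pair 2 and -0.37 in pair 3, against -0.03, -0.01 and 0.05 over all probe sets. The lower mean was seen in 32, 31 and 27 of 32 probe sets in these pairs, so it did not rest on 1 pair.

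**Figure D5:**
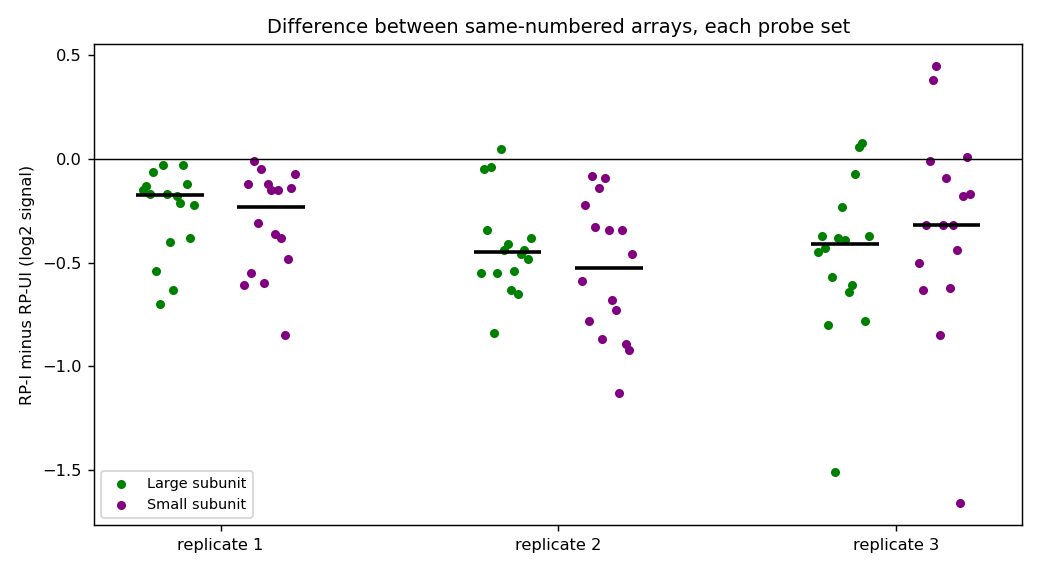
RP-I minus RP-UI difference in log2 signal (vertical axis) between arrays of the same replicate number, 1 point per probe set, for the large (green) and small (purple) subunit, with the median as a black line. Most points lie below 0 in each pair, and the few above it are mainly in replicate 3.

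The genes varied together within groups, along the split of the arrays numbered 3. Over deviations from the group means on the 6 arrays, the correlation between genes had a median of 0.60 over 231 pairs of genes, with 63 over 0.9 and 42 below 0. The arrays of a group are shared by all genes, so this is a description of the arrays as much as of the genes. RPL10A, RPL9, RPL39B and RPS27AB were most like the other members (median correlation 0.91 or 0.92), and RPS10-1 (-0.87) and RPS7 (-0.62) ran against them.

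Without both arrays numbered 3, a comparison of 2 arrays per group chosen after seeing the data, 31 of the 32 probe sets again had a lower mean in RP-I, and the median log2 fold change was -0.36. The median standard error fell to 0.16, and 12 probe sets (37.5%) were lower at an unadjusted p of 0.05 or under, against 11.1% of all probe sets. None was called by limma after adjustment (lowest adjusted p 0.069), where 2.02% of all probe sets were called lower.

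Other genes of protein synthesis were described in the same way. Of 15 probe sets of 9 translation factor genes, 12 (80.0%) were lower on average in RP-I, against 48.6% of all probe sets. The median log2 fold change was -0.18, and 0 were called, where 0.328% of all probe sets were called lower. At an unadjusted p of 0.05 or under, 1 (6.67%) was lower, near the 7.65% of all probe sets. The gene named EF-4 was at 10.20, 9.97 and 9.63 in RP-UI against 9.60, 9.28 and 9.22 in RP-I, with a log2 fold change of -0.57 (limma adjusted p = 0.263). The gene named eIF3k, for a subunit of an initiation factor that binds the small subunit, was at 11.43, 11.25 and 11.44 in RP-UI against 11.20, 10.88 and 11.11 in RP-I, with a log2 fold change of -0.31 (limma adjusted p = 0.432). Both had groups that did not overlap, the only ones of this list (13.3%, near the 9.73% of all probe sets).

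Genes under ribosome biogenesis symbols, whose products process ribosomal RNA and assemble the subunits, numbered 5, though FIB is here a synonym of an auxin synthesis gene. All 5 had a lower mean in RP-I (median -0.56), against 48.6% of all probe sets. Of the 5, 0 were called, where 0.328% of all probe sets were called lower. At an unadjusted p of 0.05 or under, 2 were lower, against 7.65% of all probe sets. The 4 without FIB, left out after seeing the data, had a median of -0.42. RRP46, of the exosome that trims ribosomal RNA, was at 8.82, 9.13 and 8.47 in RP-UI against 7.74, 6.95 and 8.01 in RP-I, with a log2 fold change of -1.24 (SE 0.32, limma adjusted p = 0.137). BOP1, at 9.81, 9.67 and 9.72 in RP-UI against 9.17, 8.93 and 9.43 in RP-I, had a log2 fold change of -0.56 (limma adjusted p = 0.187). In both genes every RP-I array lay below every RP-UI array, as it did for 9.73% of all probe sets. Of the TOR kinase pathway, which sets ribosome production to nutrient supply, only LST8 was named, with a log2 fold change of -0.22 (limma adjusted p = 0.697).

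The 3 genes with lower-case symbols, rpl5, rps20 and rps14, carry nuclear gene records, that of rps14 being a gene of succinate dehydrogenase. They had 9 probe sets, of which 8 (88.9%) had a lower mean in RP-I, against 48.6% of all probe sets. Their median was -0.18, with 0 called and 0 at an unadjusted p of 0.05 or under, where 7.65% of all probe sets were lower. Their median offset on the arrays numbered 3 was 0.82. Counted as members, a choice made after seeing the data, they would bring the small subunit median from -0.38 to -0.25. Of the probe sets so added, 4 were of rps14. The large subunit median would go from -0.32 to -0.31. No gene of the list of organelle ribosomal proteins with upper-case symbols was named by a 1-gene probe set. The array also carries 5 control probe sets named for ribosomal RNA, which were outside the test. Whether their signals follow the amount of ribosomal RNA was not tested. On the 25S control the signals were 10.20, 10.37 and 11.43 in RP-UI against 10.50, 10.50 and 11.84 in RP-I, and the array numbered 3 was the highest of both groups on 4 of the 5 controls. The exception was an 18S control, at 13.86, 13.98 and 13.95 in RP-UI against 13.82, 13.55 and 13.92 in RP-I.

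Among markers of cell state in the stem, those of dividing cells differed by far larger amounts than the ribosomal protein genes. Of 11 probe sets of 10 genes that mark dividing cells (PCNA, the MCM helicase subunits and B-type cyclins), 11 had a lower mean in RP-I. All 11 had no overlap of the groups, against 9.73% of all probe sets. Of the 11, 6 were called lower, where 0.328% of all probe sets were, and the median log2 fold change was -2.83. Their summed signal on the log2 scale was 14.01 to 14.45 in RP-UI and 10.77 to 12.60 in RP-I. PCNA, the clamp of DNA replication, fell from 11.26, 11.10 and 11.21 to 8.72, 8.19 and 8.16 (log2 fold change -2.83, SE 0.19, limma adjusted p = 0.0284).

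Shoot meristem and young stem markers had means on the other side. All 6 probe sets of OSH1, OSH6, OSH43 and OSH71 had a higher mean in RP-I, by 0.20 to 2.32. Of the 6, 1 was called (OSH71, log2 fold change 1.64, limma adjusted p = 0.0476), where 0.235% of all probe sets were called higher. The summed signal of the 6 was 9.15 to 9.57 in RP-UI and 10.18 to 10.50 in RP-I. Of the 6 green leaf probe sets tested, 0 were called, where 0.328% of all probe sets were called lower and 0.235% higher. The median log2 fold change was 0.01, but 4 of the 6 were of rbcS, 1 of these with a mean signal of only 3.62. Groups did not overlap for 2 (33.3%) lower in RP-I, both of CAB2R, against 9.73% of all probe sets. They did not overlap for 1 higher, of rbcS, against 9.12%. Both probe sets of CAB2R, a chlorophyll-binding protein, had log2 fold changes of -1.32 and -1.59 (limma adjusted p = 0.157 and 0.0775, the second 0.0485 with the block), and the 4 of rbcS, the small subunit of the enzyme that fixes carbon dioxide, ran from 0.00 to 0.41. The summed green leaf signal was 14.38 to 14.92 in RP-UI and 13.15 to 13.79 in RP-I, most of it CAB2R, while that of rbcS alone was 10.62 to 11.51 in RP-UI and 10.86 to 11.81 in RP-I. No root marker on the list was named. The part of these cell populations in the ribosomal protein signals was not tested.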

How the data were processed

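RNA from 3 RP-UI and 3 RP-I trays was hybridised to Affymetrix Rice Genome Arrays of 57381 probe sets. The log2 values used are those deposited by the authors, made by RMA in Affymetrix Expression Console per the labels, while the methods name GeneSpring GX. Versions of RMA and Expression Console were not given, and a scale shared by RMA can hide a shift of all transcripts. Array controls (123 probe sets) were left out, as were probe sets whose mean over the 6 arrays lay under the 10th percentile, which left 51532. The study also names a filter from that percentile up, but not how it was applied, and it kept fewer probe sets. The moderated test, which the study also used, was run in limma 3.58.1 (R 4.3.3), RP-I against RP-UI, with Benjamini-Hochberg adjustment and a threshold of 0.05. On simulated data the fit was checked for known changes, set far larger than those of most members. The simulated noise was independent between arrays. The check thus does not cover changes as small as most of those here, nor the offset of the arrays numbered 3. Arrays have no read depth, and their number limits the precision.

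Genes were named through the platform annotation and a RefSeq gene table. Of the probe sets, 22436 named 1 gene, 95 several and 34850 none. No build is given for the values, so no position is printed. Promoter motifs, planned for these genes, were not searched. Members and lists were chosen with earlier results of these data known. Per-array values are given for the 5 genes of each subunit with the largest change in their probe set of highest mean signal, for members called with the block, for genes whose probe sets differ in sign and, in the lists of other translation genes, for the 2 of lowest p. RPL11, RPL18 and the further probe sets of RPL27, RPS3A and RPS4 were chosen after their values were seen, as were PCNA, OSH71 and CAB2R.

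The replicate numbers were taken to pair the arrays, because in each same-numbered pair the deviations from group means correlated above 0.1 (0.521, 0.308 and 0.624 for numbers 1, 2 and 3). The labels do not say what a number shares, and the difference of both arrays numbered 3 would alone raise all 3 values. Arrays of unlike number also passed 0.1, with 0.244 for RP-UI 2 with RP-I 1 and 0.295 for RP-UI 1 with RP-I 2. The threshold thus does not by itself show that arrays 1 and 2 are paired by number. The calls with the block and the counts over pairs rest on these numbers. Alternatives changed the filter, the scaling, the prior, the block, the threshold, the choice of probe sets and the arrays used.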

Additional observations from a re-analysis of the deposited data

How the results depend on the processing

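The 3 arrays per group limit the precision of each fold change. The RPS21 probe set of highest mean signal lay near the top of the range, and the part of this in its small difference was not tested. The other RPS21 probe sets, of lower signal, had log2 fold changes of -0.09 and 0.09. Called members stayed at 0 in either subunit under the other filters, scalings, prior and with any 1 array left out. Without RP-UI 1, RP-UI 2, RP-UI 3, RP-I 1 or RP-I 2, no probe set of the whole array was called. In those fits the 0 says nothing particular to the members. With the replicate block, 2 large and 1 small subunit probe sets were called lower, and with no adjustment of p 3 and 2. The block, from the pairing of replicate numbers, changed no other call among the members. Leaving out 1 array, the large subunit median lay between -0.48 and -0.23 and the small subunit median between -0.54 and -0.23, with 14 to 16 and 12 to 15 probe sets lower in RP-I.

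Over the whole array, 121 probe sets were called higher and 169 lower. These counts became 2092 and 2287 with the replicate block, 45 and 81 with arrays centred on their medians, 20 and 67 with a trended and robust prior, and 1426 and 1040 without both arrays numbered 3 (added after seeing the data). Quantile normalization again gave 193 higher. Leaving out 1 array gave 0 to 172 higher and 0 to 108 lower by limma. The count was 0 in both directions without RP-UI 1, RP-UI 2, RP-UI 3, RP-I 1 or RP-I 2, with 5015 to 7979 probe sets under 0.05 before adjustment. The cause was not tested.

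Signs turned in 8 probe sets, none of them called. Leaving out 1 array, the log2 fold change lay between -0.45 and 0.09 for RPL5A (above 0 without RP-UI 3, 0.06, and RP-I 2), between -0.43 and 0.04 for RPL7A-1 (above 0 without RP-I 2), between -0.27 and 0.09 for the third RPL27 probe set (above 0 without RP-I 3) and between -0.45 and 0.02 for RPS27AB (above 0 without RP-UI 3). It lay between -1.18 and 0.30 for the second RPS4 probe set (above 0 without RP-UI 3 and RP-I 2), and for the probe sets of RPS21 between -0.08 and 0.01, -0.89 and 0.49, and -0.30 and 0.33, without RP-UI 3 at 0.01, 0.49 and -0.30. The RPS3A probe set at -0.95 lay between -1.35 and -0.19, the last without RP-I 3, and the second of RPL27 between -1.14 and -0.52. Without both arrays numbered 3, the third RPL27 probe set was at 0.01 and the third of RPS21 at -0.09.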
